A study of Mus musculus with 16 samples.

Results

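Which genes respond to thyroid hormone differently under the genotype labels WT and RXRgKO was asked across all 16 of the 16 RNA-seq libraries of the study, taken in 4 groups of 4 by their titles. The cells were mouse oligodendrocyte precursor cells (OPCs), the dividing cells that become myelin-forming oligodendrocytes, here derived from neural stem cells through oligospheres. The groups were WT (described as Rxrg +/+) without T3, WT with T3, RXRgKO (described as Rxrg -/-) without T3 and RXRgKO with T3. All 4 groups shared the strain C57BL6J/129svEmx mixed background and were taken on day 4 of monolayer culture, treated groups after 24 h of triiodothyronine (T3), and poly-A RNA was sequenced. Neither the T3 dose nor how the knockout allele was built is given in the sources used here. For each gene, the T3 change is the log2 ratio of the T3-treated to the untreated libraries of a label, and subtracting the WT-labelled T3 change from the RXRgKO-labelled one gives the T3 response difference. A difference below 0 therefore means a smaller rise, or a larger fall, with T3 under the RXRgKO label.

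T3 is the active thyroid hormone. It binds nuclear receptors encoded by Thra and Thrb, which sit on DNA mostly as pairs with a retinoid X receptor (RXR, encoded by Rxra, Rxrb or Rxrg) and change from repression to activation of nearby genes when the hormone binds. In OPCs, T3 is known for promoting exit from the cell cycle and the expression of myelin genes, and RXR also pairs with retinoic acid, fatty acid and oxysterol receptors.

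Levels of the targeted gene ran opposite to the labels. Rxrg was measured at 1.79, 1.48, 1.137 and 1.65 CPM (the library-size scaled read count, with replicates given in number order throughout) in untreated WT-labelled libraries and at 0.885, 0.96, 0.597 and 0.371 CPM with T3. In the libraries labelled RXRgKO it stood at 4.83, 3.77, 4.6 and 3.79 CPM without T3 and at 5.46, 4.89, 4.27 and 5.05 CPM with T3. Every RXRgKO-labelled library was thus above every WT-labelled one, and the genotypes are given below only as labels. Counts per gene do not show which exons the reads came from. The T3 response difference of Rxrg was 1.31 (log2, SE 0.32), with an adjusted p of 0.214 by edgeR's quasi-likelihood test. Transcripts of the other receptor genes gave differences of 0.10 for Rxra, 0.14 for Rxrb, 0.04 for Thra and -0.11 for Thrb, each with an adjusted p of 1 and a 95% interval that held 0 (Rxra -0.65 to 0.85, Rxrb -0.29 to 0.58, Thra -0.53 to 0.60, Thrb -0.51 to 0.28).

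Libraries held 18262279 to 42588442 counts in genes, and no label states whether a group's 4 libraries are separate cultures, so each p-value speaks only for the spread among the libraries sequenced, which may be technical. Within each group the libraries fell into sets. Pairs within a set differed by a chi-square of 1.503 to 2.124 per gene, and pairs from different sets by 4.944 to 9.617. WT-labelled replicate 1 stood alone in both treatments. The RXRgKO-labelled libraries divided by Xist, the RNA of the inactive X chromosome, which lay between 1.39 and 3.75 CPM in 4 of them (untreated replicates 1 and 3, replicates 1 and 2 with T3), while the others had 543 to 723 CPM. The Y-linked Ddx3y was at 73.3, 13.9, 15.8 and 14.6 CPM in the untreated WT-labelled libraries and at 60.6, 68.1, 78.3 and 77.9 CPM with T3, so replicates 2 to 4 differed between treatments in this sex-linked gene too. In RXRgKO-labelled libraries holding Xist, Ddx3y was at 52.9 and 51.2 CPM without and 22.1 and 20.7 CPM with T3. In those lacking Xist it was at 115 and 118 CPM without and 126 and 124 CPM with T3. Its T3 response difference was -1.48 with a 95% interval of -3.31 to 0.35. Of the 5 sex-linked genes listed, 4 were below 0 (median -1.59) and 0 were called. Kdm5d, also Y-linked, differed by -1.83 (-3.37 to -0.29). Xist was at 526, 1198, 1220 and 1382 CPM in untreated and 401, 365, 322 and 276 CPM in treated WT-labelled libraries. Reads in no annotated gene made up 16.7% to 17.6% of reads in untreated and 12.5% to 14.7% in treated WT-labelled libraries, against 18.1% to 23.5% and 11.5% to 18.7% under the RXRgKO label. The part of the sex-linked differences in the results was not tested, and the called genes and the main gene lists are also given within pairs of library sets. All 25 OPC markers listed were measured, with a summed level of 4468 to 8107 CPM over the 16 libraries and none at 0.

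Few genes were called for a different response. Of 19764 genes tested, 13 (0.0658%) passed an adjusted p of 0.05 for the T3 response difference. For 2 (0.0101%) the difference was positive (Fam135b and Edil3). For 11 (0.0557%) it was negative, a lower response under the RXRgKO label. Of these 11, 10 are reported here (Thbs2, Hsd17b7, Pcolce, Prr5l, Ctsc, Gm44846, Slc20a2, Arhgap28, Colec12 and Itih3). At an unadjusted p of 0.05 the number was 1017 (5.15%). Treated and untreated libraries differed at 1668 genes (8.44%) under the WT label and at 555 (2.81%) under the RXRgKO label. The labels differed at 2240 genes (11.3%) without T3 and at 2943 (14.9%) with T3. The 384 genes called for T3 under both labels, which were 23.0% of the WT list and 69.2% of the RXRgKO list, all changed in the same direction, and 3 of the 384 were called for the response difference. The median difference over all tested genes was 0.03, with a median standard error of 0.320. In simulated data this test recovered 23.9% of 2-fold and 76.6% of 4-fold response differences. The simulated libraries were independent, without library sets or any other change between groups, so these shares may not hold for the real libraries. A gene that was not called was not shown to respond alike under the labels.

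**Figure D1:**
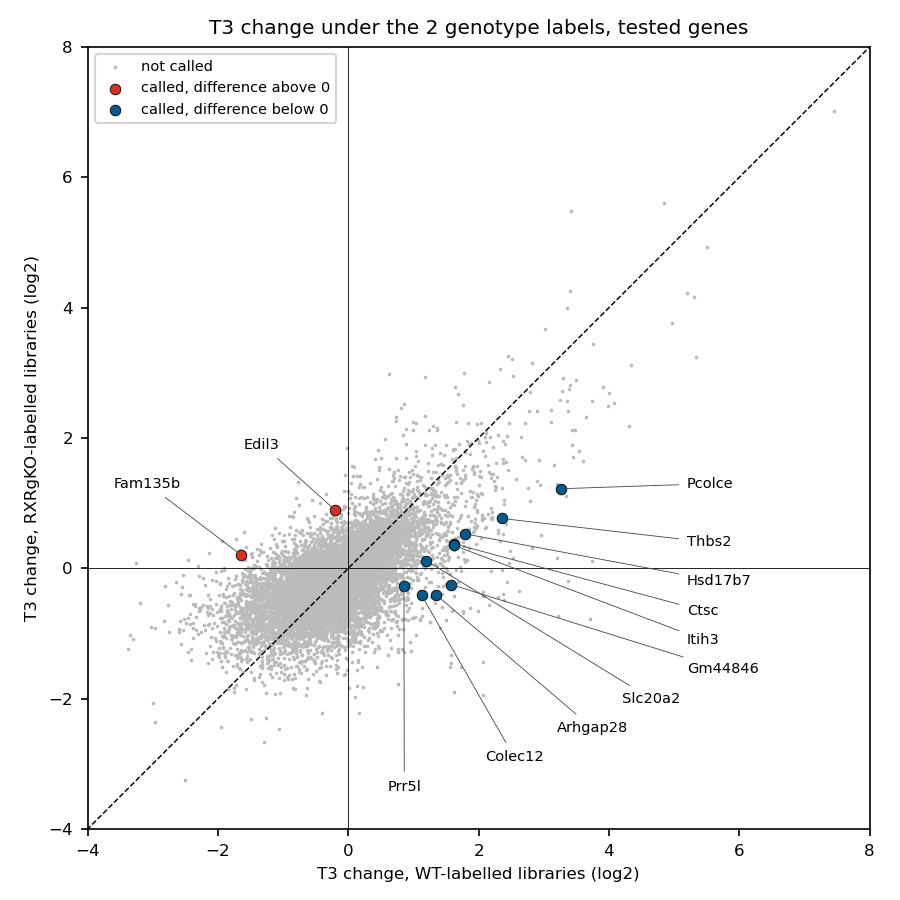
Change with T3 (log2) in the WT-labelled libraries on the x axis against that in the RXRgKO-labelled libraries on the y axis, 1 point per gene (n = 19760 of the 19764 tested), with the dashed line marking equal changes. The 12 reported genes called for the response difference are drawn large: 10 lie below the line to the right of 0 and 2 (Fam135b and Edil3) lie above it to the left of 0.

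The number of calls depended on single libraries. It was 49 without treated WT-labelled replicate 1 and 40 without untreated WT-labelled replicate 1, and 118 of 20573 tested genes (0.574%) without both. It was 3 without untreated WT-labelled replicate 2, 3 without untreated WT-labelled replicate 4 and 3 without untreated RXRgKO-labelled replicate 4. DESeq2 called 78 of 22913 genes (0.34%). A fit with a mean for each library set called 1321 genes (6.68%), 737 higher (3.73%) and 584 lower (2.95%), but it counts the closely alike libraries of a set as replicates. With the counts of each set summed into 1 library, edgeR called 0 genes, with 159 at an unadjusted p under 0.05 and a smallest adjusted p of 1. The 13 genes kept their sign in all 29 alternatives. All 13 were among the calls of DESeq2, of the fit with the set as a term and of the fit without WT-labelled replicate 1. The alternatives reuse the libraries over which the 13 were chosen, so this agreement is a description only. Fewer of the 13 were called elsewhere: 7 with no filter on low counts, 8 without the RXRgKO-labelled libraries lacking Xist and 2 without those holding Xist, where 15 genes were called in all.

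Sorted by the T3 change under each label, the 13 genes fell into 4 kinds. For 8 genes the WT-labelled libraries rose and the RXRgKO-labelled libraries were not called. Thbs2, Hsd17b7 and Pcolce rose under both labels, by less on the log2 scale under the RXRgKO label. Fam135b fell under the WT label and was not called under the RXRgKO label, and Edil3 rose under the RXRgKO label and was not called under the WT label. Treated and untreated libraries did not overlap for 12 of the 13 genes under the WT label, against 15.4% of all tested genes, and for 7 of the 13 under the RXRgKO label, against 13.4%. Since the 13 were chosen by these values, these counts are a description only. Without T3, the labels themselves differed at 8 of the 13 genes, 5 higher and 3 lower under RXRgKO, against 11.3% of all tested genes. The untreated libraries were also part of the choice of the 13, so this too is a description only.

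Fam135b (chr15:71431609-71727838, minus strand, GRCm38) had the larger of the 2 differences above 0. It was at 125, 73.2, 77.7 and 77.9 CPM in the untreated WT-labelled libraries and at 28.9, 28.4, 29.5 and 25.9 CPM with T3. Under the RXRgKO label it was at 12.1, 11.3, 13.3 and 13.7 CPM without T3 and at 11.3, 13.4, 15.3 and 18.2 CPM with T3. The WT-labelled values fell to between the RXRgKO-labelled level and their own untreated level, and the RXRgKO-labelled treatments overlapped. The T3 change was -1.65 (SE 0.17) under the WT label and 0.21 (SE 0.17) under the RXRgKO label, a difference of 1.86 (SE 0.24, 95% interval 1.34 to 2.38, adjusted p 0.00601, edgeR). Without T3 the gene was lower under the RXRgKO label by a log2 change of -2.81.

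Edil3 (chr13:88821472-89323223, plus strand) encodes a secreted matrix protein that binds integrins. Its levels were 25.7, 25.8, 29.8 and 27.4 CPM in untreated and 26.1, 21.9, 24.9 and 21.2 CPM in treated WT-labelled libraries, which overlapped. Under the RXRgKO label they were 22.8, 21.6, 22.6 and 22.8 CPM without T3 and 41.0, 41.5, 42.2 and 42.9 CPM with T3. The 4 treated RXRgKO-labelled libraries stood above the other 12 and close to each other, although they belong to 2 library sets. The difference was 1.11 (SE 0.14, 95% interval 0.81 to 1.40, adjusted p 0.00601, edgeR), from a T3 change of -0.21 under the WT label and 0.90 under the RXRgKO label.

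Of the genes with a lower response, Thbs2, Pcolce, Itih3 and Colec12 encode secreted or membrane proteins. Thbs2 (chr17:14665500-14694235, minus strand), which encodes the matrix glycoprotein thrombospondin 2, was at 3.98, 3.08, 3.45 and 3.61 CPM in untreated and 20.3, 16.6, 17.5 and 17.9 CPM in treated WT-labelled libraries. Under the RXRgKO label it was at 8.32, 11.1, 9.41 and 10.5 CPM without T3 and at 20.3, 17.5, 13.4 and 15.7 CPM with T3. The treated libraries of the labels overlapped, and the untreated ones did not. The difference was -1.59 (SE 0.20, adjusted p 0.00601, edgeR), from a rise of 2.35 under the WT label and 0.77 under the RXRgKO label.

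Pcolce (chr5:137605103-137613784, minus strand) encodes a secreted enhancer of the enzyme that trims procollagen. It rose from 1.26, 1.01, 0.927 and 1.26 CPM to 13.97, 9.12, 8.58 and 11.1 CPM under the WT label, 9.56-fold by the group means, and from 4.38, 9.05, 6.34 and 8.24 CPM to 14.4, 14.9, 16.9 and 19.1 CPM under the RXRgKO label, 2.33-fold. With T3 the WT-labelled values ended just below the RXRgKO-labelled ones, and the labels were not called different there (0.61, adjusted p 0.0549, edgeR). The response difference was -2.04 (SE 0.31, adjusted p 0.0182, edgeR).

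Itih3 (chr14:30908572-30923760, minus strand) encodes a heavy chain of the inter-alpha-trypsin inhibitors, which bind hyaluronan. It was at 9.96, 11.5, 11.8 and 10.97 CPM in untreated and 26.3, 34.7, 35.8 and 39.5 CPM in treated WT-labelled libraries. Under the RXRgKO label the values were 8.32, 12.8, 12.9 and 9.64 CPM without T3 and 15.2, 14.2, 14.1 and 12.3 CPM with T3. Untreated libraries of the labels overlapped, and with T3 every WT-labelled library was above every RXRgKO-labelled one. The difference was -1.27 (SE 0.22, adjusted p 0.0388, edgeR).

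Colec12 (chr18:9707595-9882644, plus strand) encodes a scavenger receptor of the cell membrane. It was at 2.24, 2.07, 2.53 and 2.48 CPM in untreated and 6.13, 4.71, 3.67 and 5.81 CPM in treated WT-labelled libraries, against 17.0, 26.3, 22.5 and 24.3 CPM and 19.5, 20, 13.9 and 14.4 CPM under the RXRgKO label. All RXRgKO-labelled libraries stayed above all WT-labelled ones, by a log2 difference of 3.27 without T3 and 1.73 with T3. The response difference was -1.54 (SE 0.26, adjusted p 0.0388, edgeR). In bulk RNA, fewer cells of a type and less RNA per cell cannot be told apart, and the 19 mural and mesenchymal markers summed to 175 to 245 CPM in the WT-labelled and 615 to 1291 CPM in the RXRgKO-labelled libraries. The part of such cells in the Thbs2, Pcolce and Colec12 differences was not tested.

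**Figure D2:**
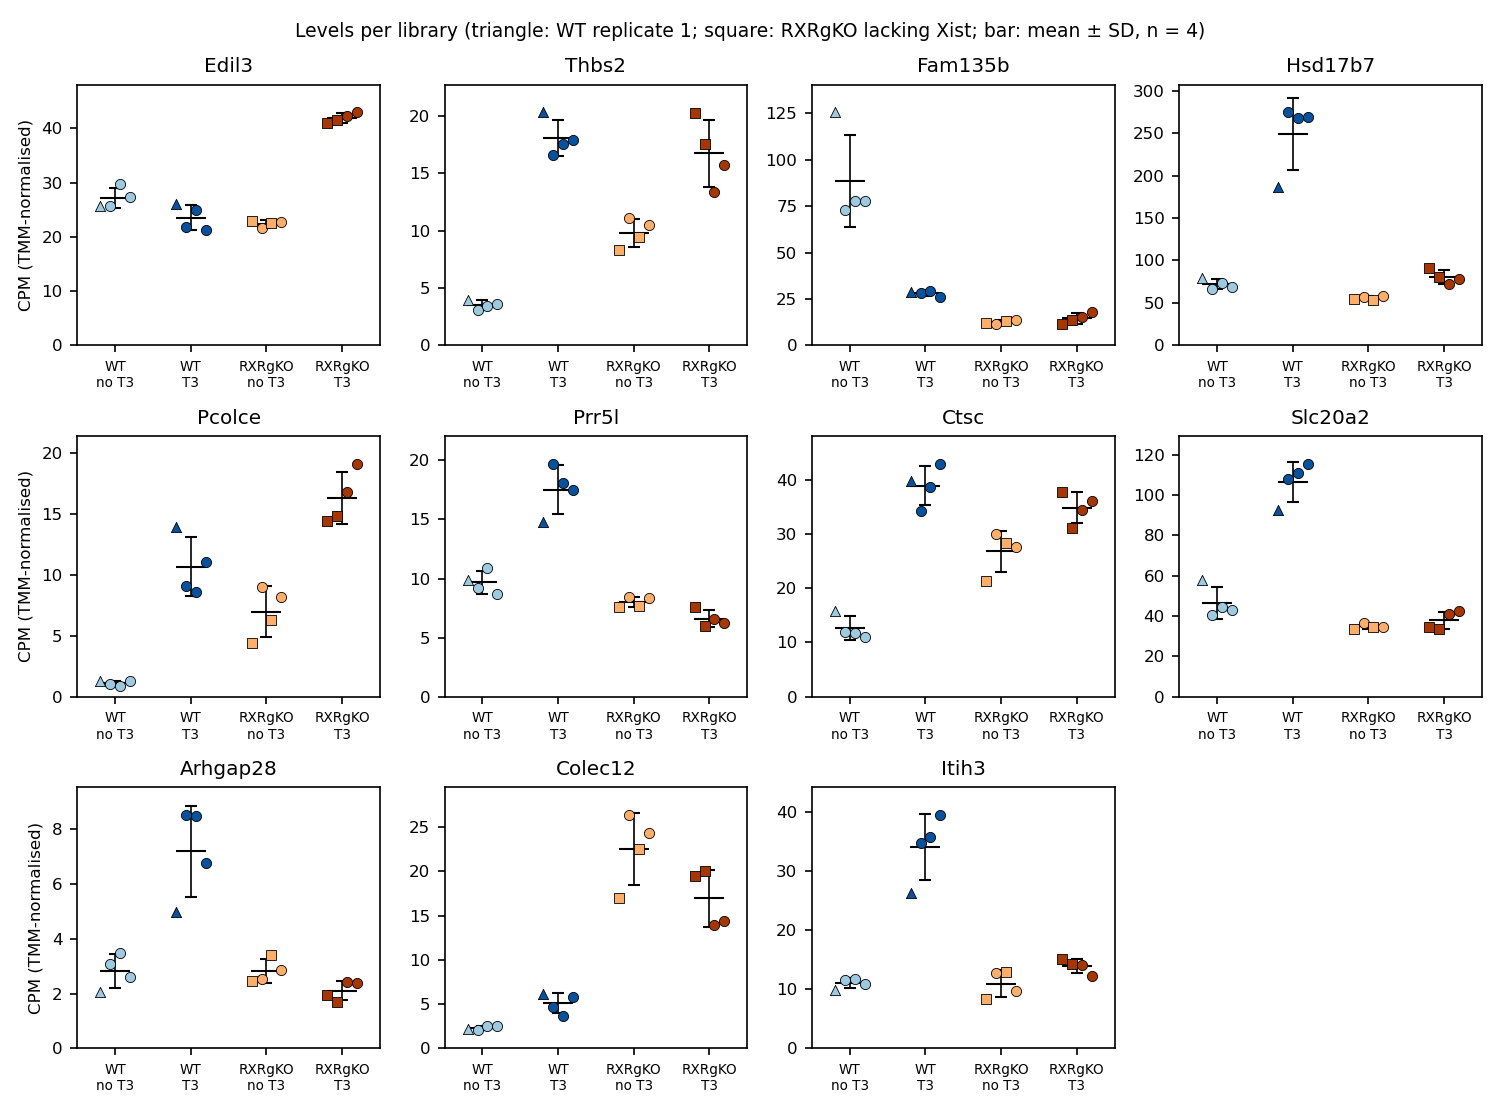
Level in CPM (y axis) of 11 protein-coding genes called for the response difference, 1 point per library in the 4 groups, with the mean and SD of each group (n = 4). Triangles are WT-labelled replicate 1 and squares the RXRgKO-labelled libraries lacking Xist; in 9 of the panels the WT-labelled points rise with T3, in Fam135b they fall, and in Edil3 the treated RXRgKO-labelled points stand apart at 41.0 to 42.9 CPM.

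Hsd17b7 (chr1:169949535-169969241, minus strand) encodes the keto-reductase of the sterol demethylation steps in cholesterol synthesis. It rose from 79.6, 65.9, 73.6 and 68.6 CPM to 186, 275, 268 and 270 CPM under the WT label, and from 54.2, 57.1, 53.3 and 58.3 CPM to 91.3, 80.4, 72.5 and 77.6 CPM under the RXRgKO label. Treated WT-labelled replicate 1 was the lowest of its group and still above all 8 RXRgKO-labelled libraries. The difference was -1.27 (SE 0.19, 95% interval -1.66 to -0.87, adjusted p 0.0143, edgeR), from 1.79 under the WT label and 0.53 under the RXRgKO label. The gene lies 2.31 Mb from Rxrg, the targeted gene, and was the only called gene on chromosome 1.

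The genes of signalling, transport and lysosomal function with a lower response were Prr5l, Slc20a2, Arhgap28 and Ctsc. Prr5l (chr2:101714285-101883027, minus strand), whose product binds mTOR complex 2, was at 9.88, 9.21, 10.9 and 8.71 CPM in untreated and 14.8, 19.7, 18.1 and 17.5 CPM in treated WT-labelled libraries. The RXRgKO-labelled libraries were at 7.57, 8.44, 7.71 and 8.33 CPM without T3 and at 7.58, 6, 6.61 and 6.25 CPM with T3. The WT-labelled groups did not overlap and the RXRgKO-labelled ones did, and the difference was -1.13 (SE 0.18, adjusted p 0.0182, edgeR).

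Slc20a2 (chr8:22476788-22569612, plus strand) encodes a sodium-dependent phosphate transporter. It was at 57.8, 40.8, 44.4 and 42.9 CPM in untreated and 92.5, 108, 111 and 115 CPM in treated WT-labelled libraries, and at 33.7, 36.6, 34.6 and 34.5 CPM and 34.4, 33.8, 40.9 and 42.3 CPM under the RXRgKO label. Only the WT-labelled groups were apart, and the difference was -1.08 (SE 0.18, adjusted p 0.0327, edgeR). The gene overlaps Smim19 on the opposite strand and Gm17491 on its own, and since the strand setting of the counting is not given in the sources used here, their reads may not be told apart.

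Ctsc (chr7:88278085-88310888, plus strand) encodes cathepsin C, a lysosomal dipeptidyl peptidase. It rose from 15.9, 11.9, 11.7 and 11.1 CPM to 39.8, 34.1, 38.7 and 42.9 CPM under the WT label and was at 21.4, 29.9, 28.4 and 27.5 CPM without and 37.7, 31.0, 34.4 and 36.1 CPM with T3 under the RXRgKO label. Treated libraries of the labels overlapped, as for Thbs2. The difference was -1.24 (SE 0.19, adjusted p 0.0182, edgeR). On the same chromosome, Gm44846 (chr7:88119158-88122400, plus strand), an unclassified locus inside the glutamate receptor gene Grm5 and on its strand, was at 0.522 to 0.718 and 1.44 to 2.13 CPM in untreated and treated WT-labelled libraries. In RXRgKO-labelled libraries the level was 1.23 to 1.58 and 0.967 to 1.63 CPM, and its difference was -1.83 (SE 0.30, adjusted p 0.0291, edgeR). Grm5 itself had a difference of -0.84 (95% interval -1.32 to -0.36, adjusted p 0.276).

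Arhgap28 (chr17:67842713-68004120, minus strand) encodes an activator of GTP hydrolysis by small G proteins. It was at 2.07, 3.08, 3.496 and 2.61 CPM in untreated and 4.99, 8.50, 8.49 and 6.76 CPM in treated WT-labelled libraries. RXRgKO-labelled values were 2.47, 2.54, 3.41 and 2.87 CPM without T3 and 1.93, 1.68, 2.42 and 2.39 CPM with T3. The untreated groups of the labels overlapped, with a log2 difference of 0.00026, and with T3 the labels were apart by -1.75. Its response difference was also -1.75 (SE 0.29, 95% interval -2.37 to -1.13, adjusted p 0.0327, edgeR).

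T3 receptors paired with RXR bind the half-site AGGTCA, classically as a direct repeat, AGGTCA then NNNN then AGGTCA. Promoter windows of RefSeq (GRCm38.p6) ran from 250 bases before to 50 after a gene's start. They were available for 7 of the 11 genes with a lower response and 0 of the 2 with a positive difference. On either strand, AGGTCA stood in the window of 1 of the 7 genes, Arhgap28, and in 1922 of 12931 tested genes with a window (14.9%). The spaced repeat, which holds the half-site and so overlaps it, stood in 0 of 12931. The share in the called genes was thus near that of all genes. A window of Arhgap28 (chr17:67950891-67951190, minus strand), at an internal start of the gene, is shown for its match, with the half-site in capitals. That of Hsd17b7 (chr1:169969156-169969455, minus strand) is shown beside it as that of the called gene on the chromosome of Rxrg, and holds no match.
Arhgap28: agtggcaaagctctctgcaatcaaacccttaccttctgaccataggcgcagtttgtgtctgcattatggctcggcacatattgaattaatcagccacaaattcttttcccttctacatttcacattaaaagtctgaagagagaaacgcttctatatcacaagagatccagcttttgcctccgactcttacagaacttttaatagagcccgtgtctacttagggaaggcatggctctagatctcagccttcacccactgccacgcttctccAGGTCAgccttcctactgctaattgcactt
Hsd17b7: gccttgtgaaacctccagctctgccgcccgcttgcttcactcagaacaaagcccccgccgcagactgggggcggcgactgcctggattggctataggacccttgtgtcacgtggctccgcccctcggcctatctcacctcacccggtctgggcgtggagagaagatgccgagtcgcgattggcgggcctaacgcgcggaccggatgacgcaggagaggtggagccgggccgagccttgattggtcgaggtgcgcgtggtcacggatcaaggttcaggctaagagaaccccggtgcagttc

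The library sets bear on each of these values, and the difference was therefore computed within pairs of sets, 1 of the RXRgKO-labelled sets minus 1 of the WT-labelled sets. Every called gene kept its sign in all 4 pairings, but the genes were chosen over these same libraries, so this is a description only. For Edil3 the pairings gave 0.84 to 1.23 and for Fam135b 1.41 to 2.53. Hsd17b7 was at -0.55 and -0.85 against WT-labelled replicate 1 and at -1.29 and -1.59 against WT-labelled replicates 2 to 4, and Slc20a2 at -0.68 and -0.45 against -1.38 and -1.15. Values against WT-labelled replicate 1 were thus nearer 0 for both genes, while for Arhgap28 they were -1.90 and -1.40 against -2.01 and -1.51. Edil3, Thbs2 and Fam135b were called in all 16 fits that left out 1 library, and Hsd17b7 in 9. Pcolce and Prr5l were called in 7 each, Gm44846 and Colec12 in 5 each, Ctsc and Arhgap28 in 4 each, Itih3 in 3 and Slc20a2 in 2, with adjusted p-values up to 0.173 in these fits.

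**Figure D3:**
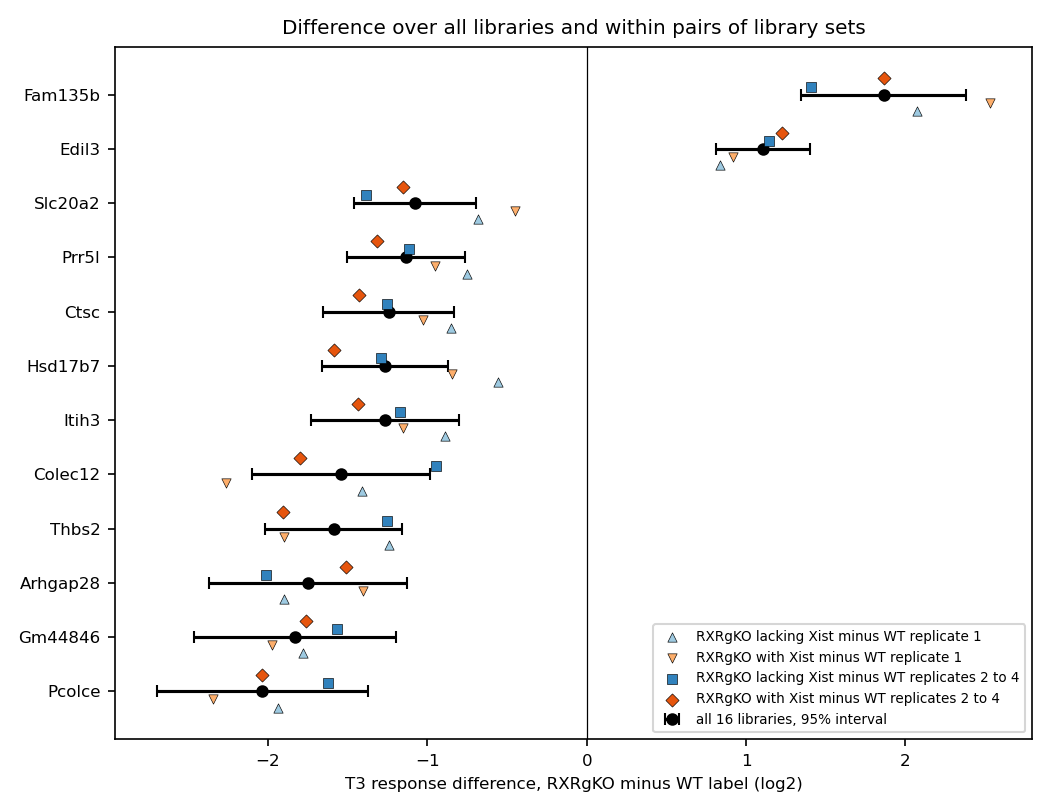
T3 response difference (log2, x axis) of 12 called genes (y axis), as the estimate over all 16 libraries with its 95% interval (black) and within the 4 pairs of library sets (coloured symbols, no error since they rest on 1 to 3 libraries a group). All symbols of a gene lie on the same side of 0, and for Hsd17b7 and Slc20a2 those against WT-labelled replicate 1 lie nearer to 0 than those against replicates 2 to 4.

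Beyond single genes, 39 lists of genes by function or cell type held 786 tested genes, of which 2 were called (Hsd17b7 in the cholesterol list and Thbs2 in the list of tenascins and other matrix genes). The other 37 lists held no called gene. List medians below are to be read beside the median of 0.03 over all tested genes. Counts at an unadjusted p under 0.05 are to be read beside the 5.15% of all tested genes, in either direction.

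All 25 tested genes of cholesterol synthesis and uptake had a difference below 0, with a median of -0.30, and 1 of them was called. Their median T3 change was 0.59 under the WT label, where 8 were called higher, and 0.32 under the RXRgKO label, where 2 were. Over all tested genes, 8.44% and 2.81% were called for T3 in either direction, so calls were fewer under the RXRgKO label there too. Besides Hsd17b7, Ebp, the sterol isomerase, was at 16.7 to 20.2 CPM without and 29.6 to 41.6 CPM with T3 under the WT label, and at 10.8 to 12.4 and 17.1 to 20.6 CPM under the RXRgKO label, a difference of -0.34 (95% interval -0.70 to 0.02). Sc5d, the sterol desaturase, differed by -0.47 (-0.98 to 0.05), and Acat2, the thiolase that starts the pathway, by -0.40 (-0.88 to 0.08). The median of the list depended on the set: it was 0.13 and -0.14 against WT-labelled replicate 1 and -0.23 and -0.55 against WT-labelled replicates 2 to 4. The mean level of the list was 6.66 (log2 CPM) in untreated WT-labelled replicate 1 and 5.91 to 5.94 in the other 3 untreated WT-labelled libraries.

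Of 36 genes of DNA replication and mitosis, 34 had a difference below 0 (median -0.32) and 0 were called. At an unadjusted p under 0.05 there were 2, near the share of 5.15% over all tested genes. Cenpe, a kinetochore motor, fell under the RXRgKO label by 0.81 on the log2 scale and was at -0.26 (adjusted p 0.40) under the WT label, a difference of -0.55 (95% interval -1.05 to -0.05, adjusted p 0.874). Plk1, a mitotic kinase, differed by -0.64 (-1.25 to -0.03) and Mki67, a marker of dividing cells, by -0.50 (-1.13 to 0.13). The median of the list was -0.16 and -0.03 with the RXRgKO-labelled libraries lacking Xist and -0.66 and -0.71 with those holding it. In the latter, the mean level of the list was 5.03 and 4.92 (log2 CPM) without T3 and 4.25 and 4.24 with T3. In those lacking Xist it was 5.24 and 5.39 without and 5.12 and 5.07 with T3.

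All 17 tested markers of GABAergic interneurons, a cell type other than the one labelled, had a difference above 0 (median 0.70), and 0 were called. At an unadjusted p under 0.05 there were 6, against 5.15% of all tested genes in either direction. Dlx1, a transcription factor of interneuron precursors, was at 30.4, 80.7, 77.3 and 78.2 CPM in untreated and 15.7, 28.6, 28.2 and 26.1 CPM in treated WT-labelled libraries. The RXRgKO-labelled libraries were at 119, 87.2, 112 and 100 CPM without and 96.7, 96.1, 77.8 and 76.7 CPM with T3. WT-labelled replicate 1 was the lowest library of its group in both treatments, and the difference was 1.17 (95% interval 0.41 to 1.93, adjusted p 0.426, edgeR). Dlx2 differed by 0.90 (0.17 to 1.63) and Sst, the neuropeptide somatostatin, by 1.66 (0.44 to 2.87). The median of the list was -0.21 and -0.12 against WT-labelled replicate 1 and 0.98 and 0.81 against replicates 2 to 4. The summed level of the 17 markers was 118 to 435 CPM in untreated and 87.7 to 156 CPM in treated WT-labelled libraries, and 540 to 648 and 359 to 470 CPM under the RXRgKO label.

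For general neuron markers 20 of 23 were above 0 (median 0.47), and for glutamate and GABA receptors 22 of 27 (median 0.31). Tbr1, a factor of cortical neurons, differed by 1.17 (95% interval 0.40 to 1.94) and Nefl, the light neurofilament, by 0.68 (0.23 to 1.13). Grm4, a metabotropic glutamate receptor, differed by 0.94 (0.42 to 1.47). Of 32 axon guidance genes 23 were above 0 (median 0.32), with 7 higher and 1 lower at an unadjusted p under 0.05, among them the ligand genes Slit1 (0.90, interval 0.26 to 1.54) and Sema3b (1.27, interval 0.433 to 2.103). Against WT-labelled replicate 1 the medians were 0.02 and 0.17 for neuron markers, 0.10 and 0.08 for receptors and -0.07 and 0.16 for axon guidance, and against replicates 2 to 4 they were 0.40 and 0.65, 0.44 and 0.32, and 0.20 and 0.49. None of these lists held a gene called by edgeR over all libraries. The fit with the set as a term called 7 interneuron markers higher and 0 lower, 10 neuron markers higher and 1 lower, and 9 axon guidance genes higher and 4 lower. Over all tested genes that fit called 3.73% higher and 2.95% lower, and it counts the closely alike libraries of a set as replicates.

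**Figure D4:**
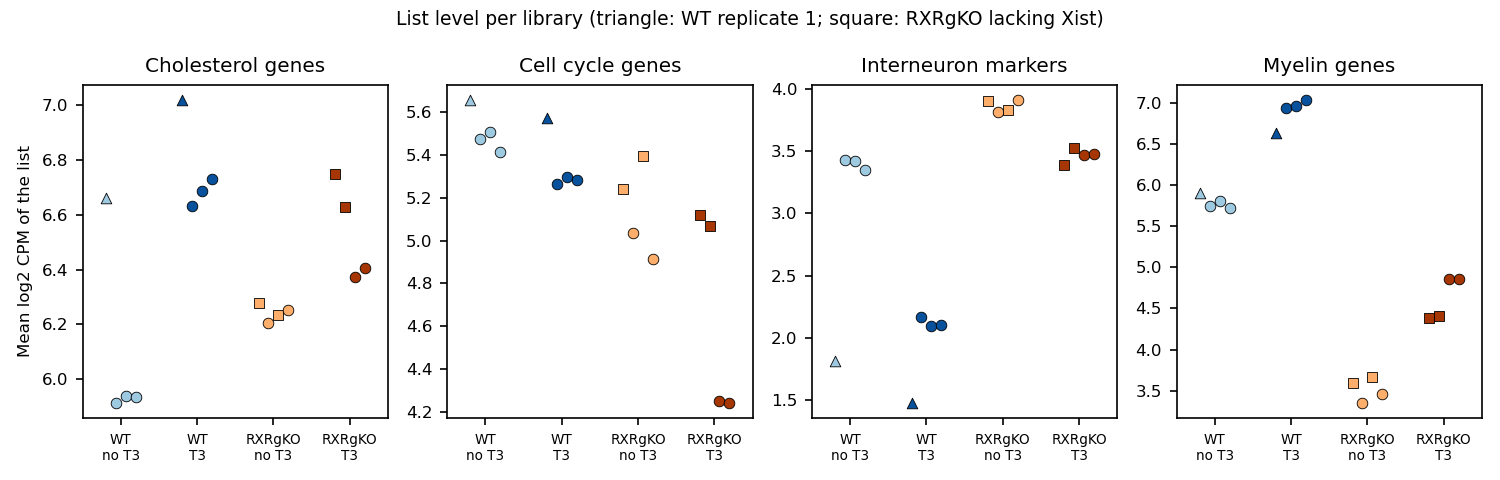
Mean log2 CPM (y axis) of 4 gene lists in each library, by group, with triangles for WT-labelled replicate 1 and squares for RXRgKO-labelled libraries lacking Xist. Untreated WT-labelled replicate 1 stands apart in the cholesterol list (6.66) and the interneuron list (1.81), and the treated RXRgKO-labelled libraries holding Xist are lowest in the cell cycle list (4.25 and 4.24).

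Of 31 tested myelin genes, the main program of the labelled lineage, 17 rose with T3 under the WT label and 12 under the RXRgKO label, 0 fell under either, and the rest were not called. The median changes were 1.03 and 0.81, and the calls for T3 over all tested genes in either direction were 8.44% and 2.81%. For the response difference 0 of 31 were called, 3 were higher and 3 lower at an unadjusted p under 0.05, and the median was 0.14. Cldn11, a tight junction protein of the myelin sheath, was at 670, 433, 456 and 423 CPM in untreated and 1167, 1073, 1081 and 1169 CPM in treated WT-labelled libraries. In RXRgKO-labelled libraries the level was 40.2, 31.0, 36.7 and 38.0 CPM without T3 and 183, 171, 370 and 397 CPM with T3. The RXRgKO-labelled values all lay below the WT-labelled ones, and with T3 they parted by set. The difference was 1.76 (95% interval 1.03 to 2.49, adjusted p 0.0865, edgeR). Opalin, a membrane glycoprotein of oligodendrocytes, differed by 2.08 (1.04 to 3.11, adjusted p 0.193) and Ugt8a, the galactolipid synthase, by 0.89 (0.38 to 1.41, adjusted p 0.29). Mbp, myelin basic protein, differed by 0.81 (-0.01 to 1.62). The list median was 0.12 and 0.81 against WT-labelled replicate 1 and -0.39 and 0.19 against replicates 2 to 4.

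Among 30 tested genes listed for their T3 response, a list made with earlier results of these data known, 12 were above and 18 below 0 (median -0.09), and 0 were called. Hr, a corepressor gene that is a direct target of the T3 receptor, rose by 2.51 under the WT label and 3.21 under the RXRgKO label, a difference of 0.70 (95% interval -0.19 to 1.58). Klf9, another direct target, differed by 0.60 (-0.26 to 1.46) and Dio3, the enzyme that inactivates T3, by 0.65 (-0.69 to 1.99). These intervals include 0 and also 2-fold differences. The largest differences below 0 went with genes that rose with T3 under the WT label: Gbp3, an interferon-induced GTPase, differed by -1.54 (-2.29 to -0.79), Aldh1a1, a retinal dehydrogenase, by -1.33 (-2.74 to 0.08) and Bcl3, a cofactor of NF-kappaB, by -1.20 (-2.42 to 0.01). The median of the 19 tested T3 receptor, deiodinase and carrier genes was 0.05, and that of the 25 OPC markers was 0.08.

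Genes of retinoid and lipid handling are of interest since RXR serves these receptors as well. Cyp26b1, which breaks down retinoic acid, was at 0.894, 1.10, 0.969 and 1.00 CPM in untreated and 0.506, 0.672, 0.640 and 0.453 CPM in treated WT-labelled libraries, and at 1.03, 1.16, 1.75 and 1.07 CPM and 1.78, 2.05, 1.95 and 1.70 CPM under the RXRgKO label. The treated libraries lay below the untreated ones under the WT label, and at or above them, with an overlap, under the RXRgKO label. Its difference was 1.39 (95% interval 0.76 to 2.02, adjusted p 0.127, edgeR). Dhrs3, a retinal reductase, differed by 0.95 (0.41 to 1.49) and Rpe65, the retinoid isomerase, by -2.08 (-3.21 to -0.96). The medians of the lists were 0.10 for RXR, RAR and retinoid metabolism (19 genes), 0.13 for PPAR and fatty acid oxidation (25 genes) and 0.12 for LXR targets (15 genes), with 0 called in each.

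Kcna1, a potassium channel of axons and glia, rose with T3 from 2.45 to 3.22 CPM up to 37.6 to 57.0 CPM under the WT label and from 1.25 to 2.26 CPM up to 10.7 to 11.3 CPM under the RXRgKO label. Its difference was -1.32 (95% interval -1.84 to -0.79, adjusted p 0.0621, edgeR), and 8 of the 29 alternatives called it. It lay just outside the threshold, and Itih3 and Colec12, just inside, had an adjusted p of 0.0388 each. Other uncalled genes lay further from it. Hcn2, a pacemaker channel, differed by -1.91 (-2.903 to -0.924, adjusted p 0.219), Nlrc5, an activator of MHC class I genes, by -1.39 (-2.002 to -0.777, adjusted p 0.114) and Gbp3, given above, had an adjusted p of 0.181. Of 31 interferon and MHC class I genes 22 were below 0 (median -0.17), and the median changed sign between set pairings (0.15, -0.32, -0.12 and -0.38). Arc, an immediate early gene of synaptic activity, differed by -1.549 (-2.42 to -0.68, adjusted p 0.265) and Ciart, a clock repressor, by -1.05 (-1.599 to -0.505, adjusted p 0.219).

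Markers of other cell types held no called gene. The median of the 19 mural and mesenchymal markers was -0.37, from -0.74 to -0.06 over the set pairings, with Postn, a matrix protein of such cells, at -1.38 (95% interval -2.06 to -0.70, adjusted p 0.181, edgeR). The median of the 17 tested microglia and macrophage markers was 0.43 but changed sign between pairings (-0.51 to 0.48). All 18 listed ones summed to 16.1 to 115 CPM. Astrocyte markers had a median of -0.04 (18 genes), endothelial markers -0.18 (12 genes), ependymal markers -0.14 (16 genes) and Schwann and neural crest markers, several of which oligodendrocytes express too, -0.03 (11 genes).

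**Figure D5:**
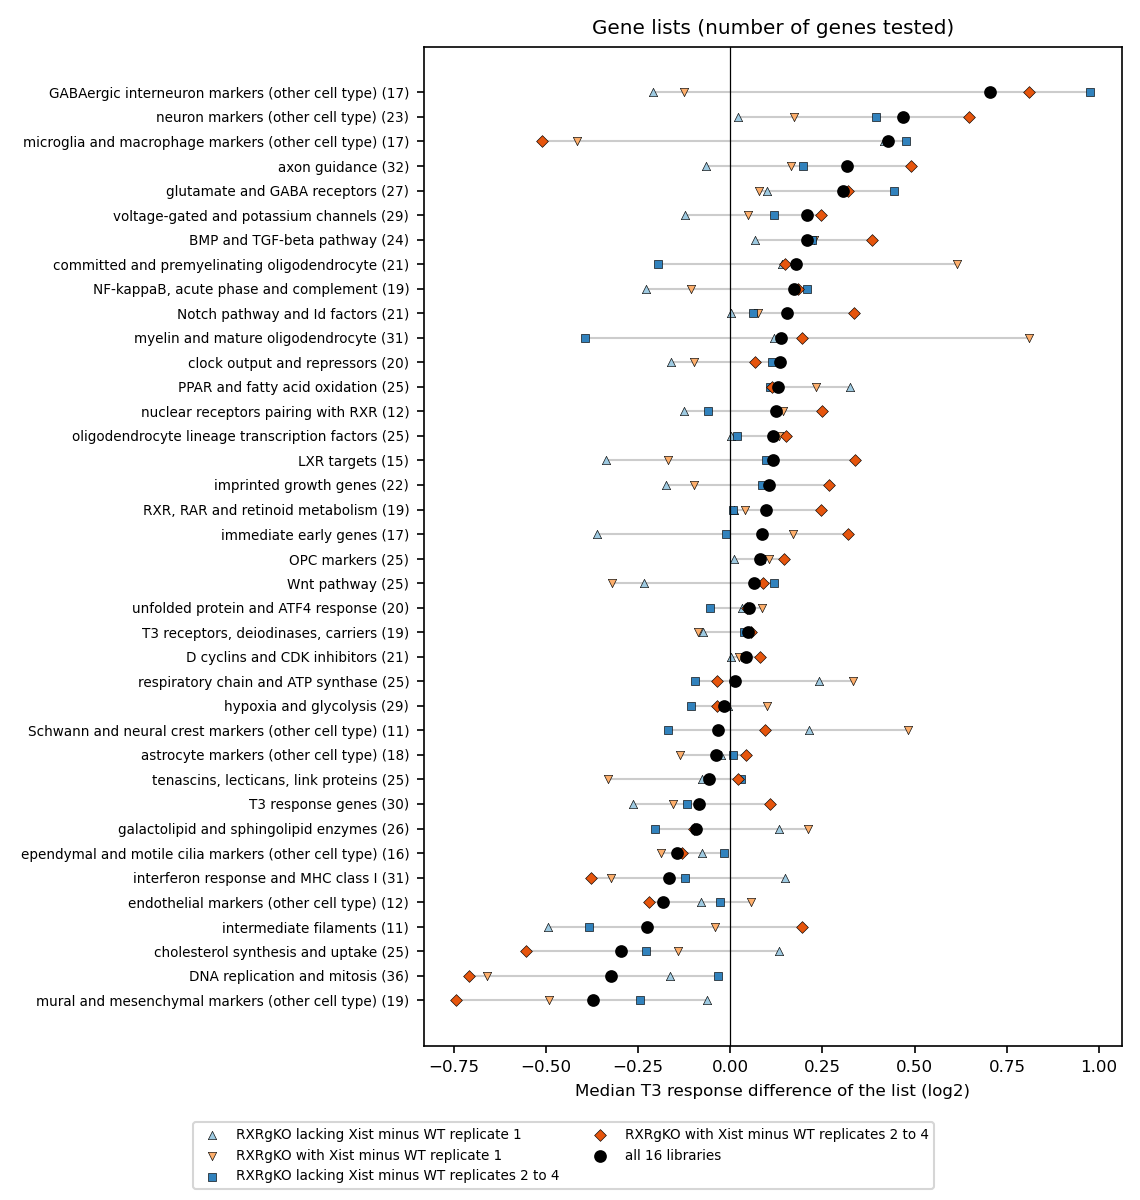
Median T3 response difference (log2, x axis) of 38 of the 39 gene lists (y axis, with the number of genes tested; the 5 sex-linked genes, with a median of -1.59, are not drawn), over all 16 libraries (black) and within the 4 pairs of library sets (coloured symbols joined by a grey line). The GABAergic interneuron list lies highest (0.70) and the mural and mesenchymal list lowest (-0.37) of those drawn, and the line of the interneuron, cholesterol and myelin lists crosses 0.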

How the data were processed

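RNA was measured in 16 libraries, 4 per group. The authors deposited raw counts for 55335 Ensembl genes, and the 5 HTSeq summary lines in each file were left out of library sizes and tests. The submitters' processing notes name mm10, HTSeq 0.6.1p1, STAR 2.5.3a and bcl2fastq 2.17.1.14. Per the labels' protocols the libraries were strand-specific, while neither the strand setting nor the annotation release of the counting is given in the sources used here. Symbols and positions were taken from GENCODE M21 (GRCm38), which held 55154 of the identifiers. The summary lines put 22.4% to 46.7% of reads in genes and 39.6% to 55.0% at several places. No molecular identifiers are described, so the count model covers counting error of reads, not of molecules.

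All libraries entered 1 edgeR 4.0.16 quasi-likelihood fit (R 4.3.3, limma 3.58.1) with robust dispersions, TMM factors, filterByExpr by group and a mean per group. Called genes had an adjusted p (Benjamini-Hochberg, over all 19764 tested genes) below 0.05. A standard error (SE) is the size of the log2 change over the root of its F statistic, and intervals are 95%. Printed CPM of single genes and log2 CPM (with a prior count of 2) carry the TMM factors. Summed CPM of a list were scaled by total gene counts without these factors, over all its matched genes, tested or not. Libraries with a chi-square per gene under 3, over genes with 20 to under 500 summed counts, formed a set. Lists are described by counts and medians, with no set test.

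The comparison, the lists and the rule for named genes were chosen with earlier results of these data known. The rule took the called genes by size, the smallest p-values, up to 4 genes per list by p, the most highly expressed markers of each other cell type, the receptor and sex-linked genes and up to 4 genes per kind of response, 175 in all. The text names a part of these, and some genes, 1 of the 13 called among them, are not reported here. Hr, Klf9, Mbp and Mki67 fall outside the rule and were chosen after their values were seen. Alternatives were DESeq2 1.42.0, limma voom, other size factors, filters and dispersions, a replicate block, each library or set left out, the set as a term, reads outside genes as a covariate and, chosen after seeing the data, counts summed per set. On simulated data with 200 changed genes among 19140, the pipeline recovered 1.54%, 23.9% and 76.6% of 1.5, 2 and 4-fold response differences, with 3 false calls of 69. Library sets were not simulated.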

Additional observations from a re-analysis of the deposited data

Results flagged for a closer look

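The response differences of the 12 called genes reported here are differences between the groups' effects by edgeR's test of the difference itself. On the log2 scale they were 1.86 for Fam135b, 1.11 for Edil3, -1.59 for Thbs2, -1.27 for Hsd17b7, -2.04 for Pcolce, -1.13 for Prr5l, -1.24 for Ctsc, -1.83 for Gm44846, -1.08 for Slc20a2, -1.75 for Arhgap28, -1.54 for Colec12 and -1.27 for Itih3, out of 19764 genes tested.

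A single library stood far from the other 3 of its group in 8 of 68 groups of values examined by Dixon's criterion, which flags about 1 in 20 by chance. All 8 were WT-labelled replicate 1. Without T3 it was highest for Fam135b (125 CPM), and with T3 it was lowest for Hsd17b7 (186 CPM). Its untreated library held 26290516 gene counts, 41.0% of reads in genes, 41.2% at several places and 1.87% of gene counts in mitochondrial genes. Its treated library held 46.7% of reads in genes and 39.6% at several places. The difference without both libraries of replicate 1 was called for all 13 genes, which had been chosen with the remaining libraries included.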

How the results depend on the processing

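Called genes numbered 13 (2 higher, 11 lower). DESeq2 called 78 (20 and 58), a filter of 1 CPM in 4 libraries 20 (17 lower), non-robust dispersions 4 higher, a covariate for reads outside genes 81 (24 and 57) and the library set as a term 1321 (737 and 584). Without the WT-labelled replicate 1 libraries the number was 118 (55 and 63), without the RXRgKO-labelled libraries lacking Xist 26 (13 higher), and without those holding Xist 1 higher. Counts summed per set, chosen after seeing the data, gave 0 (0 and 0). The cause of these shifts was not tested. Leaving out 1 library gave 3 to 49 (2 to 18 higher, 1 to 36 lower). With the replicate block, whose pairing the labels do not establish, 4 were called (2 lower). Same-number libraries correlated at 0.382 to 0.807 between the WT-labelled treatments and at -0.888 to 0.859 between the RXRgKO-labelled ones, and not every library correlated best with its own number. Limma voom, DESeq2 size factors and no filter gave 11, 17 and 14. Among the named genes, no direction reversed where the gene was called in the main fit or in the alternative. Changes of sign where it was called in neither were not marked as reversals. Of the named genes' values, 2289 kept their side of the threshold, 91 passed it and 142 lost it. Of list medians, 1061 moved by less than the spread and 70 by more. In the simulation, which held no library sets, 76.6% of 4-fold but 23.9% of 2-fold differences were recovered.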
